A study of Mus musculus with 4 samples.

Results

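The collagen genes were described in the epigonadal fat, a visceral white depot next to the testis, of fasted male mice. All single-symbol genes of the array annotation named Col, a number, a and a number were taken, which gave 44 genes of 22180 measured. They fell into 11 fibrillar, 8 basement membrane, 6 beaded filament, 9 fibril-associated (FACIT), 3 network, 1 anchoring, 4 transmembrane and 2 other collagens. LDKO mice carried floxed Irs1 and Irs2, the insulin receptor substrates, with an Albumin-Cre transgene, and were set against Irs1/2-flox mice, which carried the same floxed alleles without Cre. LTKO mice carried floxed Irs1, Irs2 and FoxO1, a transcription factor restrained by insulin, with Albumin-Cre, and were set against Irs1/2:FoxO1-flox mice without Cre. The albumin promoter directs Cre to hepatocytes, so the fat itself was not the target. The Cre lines were sampled at 4 months of age, the age of the controls is not stated, and it is not stated either if RNA of several mice was pooled on an array. All 4 groups carried floxed Irs1 and Irs2, and each had 1 array, so differences here compare single arrays, nothing was tested, and the precision is limited by that number of arrays. Values are log2 signals, and a difference of 1 is 2-fold.

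Collagens are triple helices of 3 chains and make up most of the matrix around cells. Fibrillar types give tensile strength, type IV forms the sheet of the basement membrane, and type VI forms beaded filaments between that sheet and the fibrils. In fat every adipocyte sits in a basement membrane, and type VI collagen is abundant there and limits how far adipocytes of mice can enlarge. Members of a trimer are often made together, and several of their genes lie side by side in the genome.

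The adipocyte markers were present on every array, since all 8 measured genes of that list lay at or above the median gene of 5.15 in each, with list means of 11.45 in LDKO, 11.33 in the Irs1/2-flox control, 11.42 in LTKO and 11.49 in its Irs1/2:FoxO1-flox control. The arrays differed in other cell types. The LTKO array held epididymis and hepatocyte transcripts, with list means of 6.21 and 6.66 against 3.85 and 4.58 in its own control. Of the epididymis markers 5 of 6 measured reached the median gene in LTKO, against 0 in each other array. The Irs1/2-flox control array held more skeletal muscle and mesothelial signal, with list means of 6.13 and 7.30, against 5.04 and 6.62 in LDKO. The part of these tissues in the collagen values was not tested. In a bulk sample fewer cells of a type and less RNA per cell cannot be told apart.

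Promoter sequences are shown for the type VI partners Col6a1 and Col6a2, neighbouring genes that were both highest in LDKO. The third is Col1a2, a type I chain that was lowest there by its brighter probe. The type I promoter is a textbook target of factors that bind the CCAAT box. Each is the stretch of 250 bases before the annotated start (RefSeq, GRCm38.p6), 5′ to 3′ on the gene's strand, with a GC box (GGGCGG on either strand) or a CCAAT box (CCAAT on either strand) in capitals. The windows are chr10:76726045-76726294 on the minus strand for Col6a1, chr10:76623631-76623880 on the minus strand for Col6a2 and chr6:4505368-4505617 on the plus strand for Col1a2.
Col6a1: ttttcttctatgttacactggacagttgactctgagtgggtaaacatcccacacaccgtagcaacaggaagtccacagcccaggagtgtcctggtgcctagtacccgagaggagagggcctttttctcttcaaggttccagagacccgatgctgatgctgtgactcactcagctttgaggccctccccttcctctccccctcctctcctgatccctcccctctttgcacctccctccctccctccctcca
Col6a2: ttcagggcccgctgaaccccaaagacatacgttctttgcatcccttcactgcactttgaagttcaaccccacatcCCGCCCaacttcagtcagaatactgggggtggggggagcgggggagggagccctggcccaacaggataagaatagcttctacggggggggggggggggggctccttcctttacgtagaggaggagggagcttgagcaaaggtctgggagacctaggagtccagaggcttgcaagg
Col1a2: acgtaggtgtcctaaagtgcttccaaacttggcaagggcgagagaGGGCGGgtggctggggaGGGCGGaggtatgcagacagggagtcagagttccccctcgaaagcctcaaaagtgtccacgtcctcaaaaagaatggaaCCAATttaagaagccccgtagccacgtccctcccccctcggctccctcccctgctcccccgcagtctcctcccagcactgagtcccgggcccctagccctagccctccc
Col1a2 held a CCAAT box 109 bases before the start and 2 GC boxes, Col6a2 held 1 GC box, and the Col6a1 window held neither. Over 35 collagen genes with a promoter entry, 13 of 38 windows held a CCAAT box, against 33.8% of 32851 windows of all genes, and 22 held a GC box, against 32.7%, both counted in the 250 bases before the start. A TATA box (TATAAA on either strand) was in 5 of the 38 windows, Col3a1 among them, against 12.4% of all windows. The type IV genes Col4a1 and Col4a2 lie head to head, and their windows, 250 bases before to 50 after each start, overlap by 78 bases. These matches describe letters in the windows, and binding was not measured.

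Collagens were more often highest on the LDKO array than genes at large. A filter kept genes whose highest array reached the median gene, and 31 of the 44 collagens passed it over the 4 arrays. Of these 31, LDKO was the highest array for 19 and the lowest for 8, while over all 11958 such genes it was highest for 22.7% and lowest for 37.4%. A single collagen, the cartilage gene Col2a1, passed through the LDKO array alone. Without any filter LDKO was highest for 28 of all 44 collagens, against 28.6% of all genes. The 19 were 6 of 8 fibrillar, 5 of 7 basement membrane, 3 of 5 beaded filament, 2 of 6 fibril-associated and 3 other genes. Their lead over the next array ran from 0.007 for Col3a1 to 1.42 for Col15a1. It was at most 0.07 for Col3a1, Col20a1, Col9a2, Col7a1, Col5a1, Col6a3, Col13a1, Col4a5 and Col4a6, so their rank was close to a tie. The LTKO array was highest for 2 of the 31, against 21.8% of all genes, the Irs1/2-flox control for 3, against 23.9%, and the Irs1/2:FoxO1-flox control for 7, against 31.6%.

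**Figure D1:**
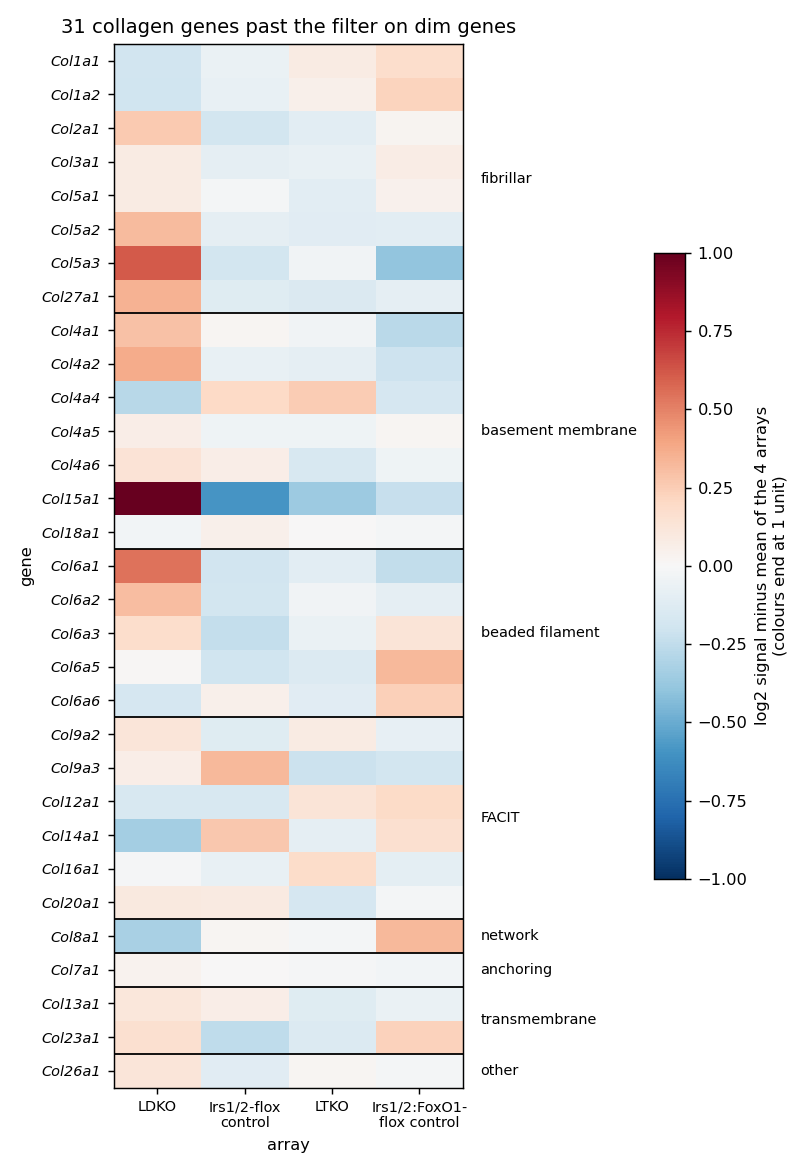
Log2 signal of each of the 31 collagen genes past the filter, minus the gene's mean over the 4 arrays, with genes in rows grouped by class and arrays in columns (red above the mean, blue below, colours end at 1 unit). The LDKO column is red for most fibrillar, type IV and type VI genes and darkest for Col15a1, and blue for Col1a1, Col1a2, Col4a4, Col8a1 and Col14a1 among others.

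Against the Irs1/2-flox control, 21 of 29 collagens past the filter in that comparison were higher in LDKO by any amount, while 43.2% of all genes were. The median collagen difference was 0.17, and the median of all 11533 genes was −0.05; against the Irs1/2:FoxO1-flox control these medians were 0.09 and −0.07. At least 2-fold higher was 1 collagen, against a background of 0.572% of genes, and 0 were 2-fold lower, against 0.624%. At 1.5-fold, 3 were higher, against 2.85% of genes, and 1 was lower, against 3.88%. The 4 genes past 1.5-fold belong to 4 different classes. Against the Irs1/2:FoxO1-flox control 19 of 28 collagens were higher in LDKO, against 39.8% of all genes. This comparison uses the same LDKO array, so it is no independent sign of the LDKO values. In that comparison 2 collagens were at least 2-fold higher, Col15a1 and Col5a3, against 0.627% of genes, and 0 were 2-fold lower, against 0.688%; at 1.5-fold 3 were higher, against 2.82%, and Col8a1 alone was lower, against 4.22%.

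**Figure D2:**
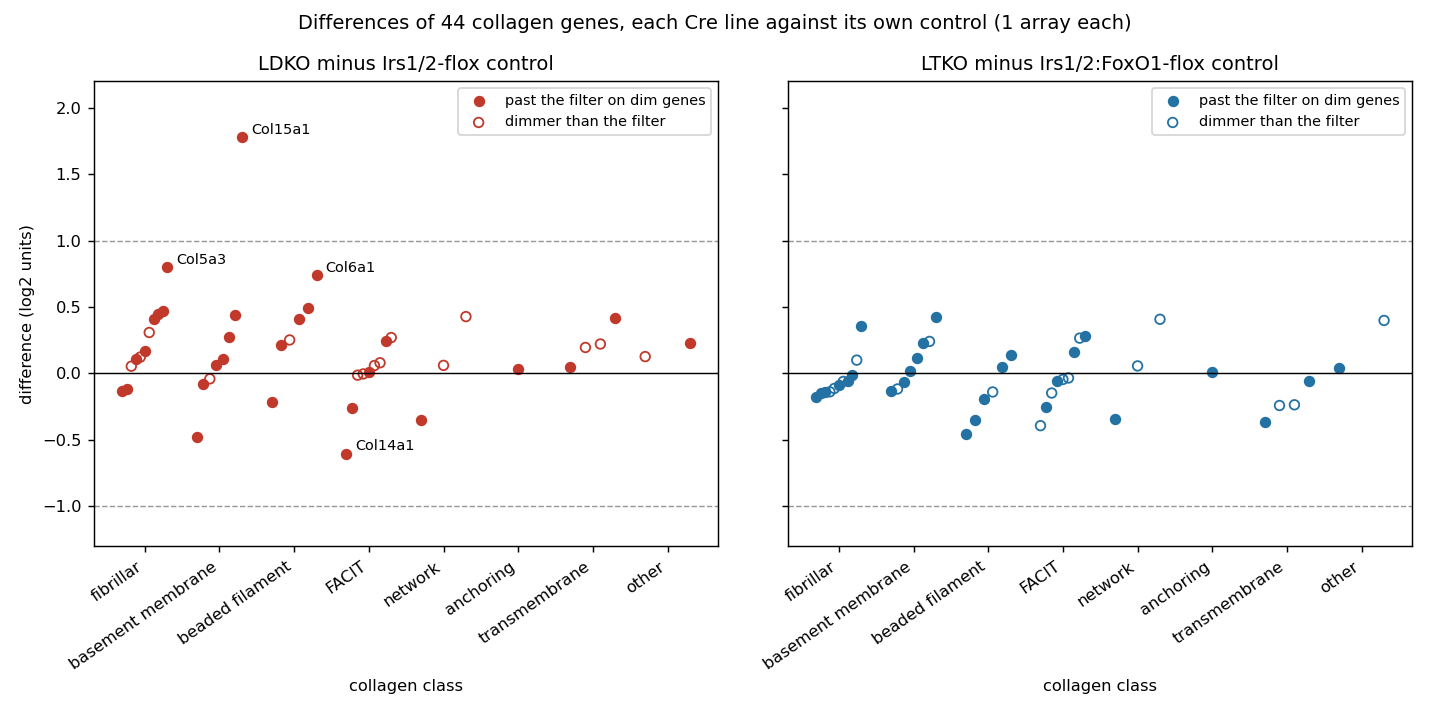
Difference in log2 units of each of the 44 collagen genes between a Cre line and its own control, by collagen class; filled points passed the filter on dim genes, open points did not, and dashed lines mark 2-fold. Col15a1 at 1.78 is the single point beyond 2-fold, in LDKO, and all LTKO points lie within 1.5-fold.

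Among basement membrane collagens, Col15a1 stood far from the rest. It encodes type XV collagen, a proteoglycan at the border of basement membrane and fibrils around muscle, capillaries and adipocytes (probe 17413866, Entrez gene 12819). Its signal was 7.83 in LDKO, 6.06 in the Irs1/2-flox control, 6.28 in LTKO and 6.42 in the Irs1/2:FoxO1-flox control. The LDKO array thus lay apart from the other 3, which spanned 0.36 among themselves. The difference was 1.78, or 3.43-fold, against the Irs1/2-flox control and 1.42 against the Irs1/2:FoxO1-flox control. Col18a1, its closest relative and the source of endostatin, spanned only 0.08 over the 4 arrays on the log2 scale, from 6.21 in LDKO to 6.29 in the Irs1/2-flox control.

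The main type IV chains, Col4a1 and Col4a2, form the trimer found in nearly every basement membrane. Col4a1 was 8.81 in LDKO, 8.54 in the Irs1/2-flox control, 8.48 in LTKO and 8.26 in the Irs1/2:FoxO1-flox control. Col4a2 was 8.40, 7.96, 7.94 and 7.83 in the same order. Both neighbours thus ranked the arrays alike, and LDKO exceeded the next array by 0.27 for Col4a1 and 0.44 for Col4a2. The gap for Col4a1 was within the 0.29 that separated the other arrays. Col4a5 and Col4a6, neighbours on the X chromosome, differed by 0.11 and 0.07 in LDKO and by −0.06 and −0.12 in LTKO, each against its own control. Col4a4, a chain of kidney and other specialised membranes, was lower in LDKO where the main chains were higher, at 4.73 in LDKO, 5.20 in the Irs1/2-flox control, 5.26 in LTKO and 4.83 in the Irs1/2:FoxO1-flox control. Its other differences, LTKO against its control and control against control, had the same sign as those of Col4a1 and Col4a2. Its neighbour and partner Col4a3 stayed below the median gene on all 4 arrays. Col4a4 itself lay close to that filter.

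The classic type VI trimer is made of the Col6a1, Col6a2 and Col6a3 chains. Col6a1 was 9.60 in LDKO, 8.86 in the Irs1/2-flox control, 8.94 in LTKO and 8.80 in the Irs1/2:FoxO1-flox control. LDKO lay 0.66 above the next array, while the other 3 spanned 0.14. Its difference against the Irs1/2-flox control was 0.74, or 1.67-fold, and 0.35 by a second, dimmer probe. Col6a2, its neighbour in the genome, was 7.64 in LDKO, 7.14 in the Irs1/2-flox control, 7.29 in LTKO and 7.24 in the Irs1/2:FoxO1-flox control, so it too was highest in LDKO. Col6a3, whose chain releases the fragment endotrophin and which lies on another chromosome, was 7.21, 6.80, 6.97 and 7.17 in that order. Col6a3 in LDKO was therefore 0.41 above its own control but only 0.05 above the Irs1/2:FoxO1-flox control. Col6a5 and Col6a6 encode chains that can take the place of the Col6a3 chain. They were highest in the Irs1/2:FoxO1-flox control, at 9.10 and 6.80, and Col6a6 was lowest in LDKO, at 6.40. Col6a4, the third gene of that cluster, stayed below the median gene on all arrays.

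Fibrillar collagens were split between types. Type V chains sit in the core of type I fibrils and set their diameter. Col5a3, a type V chain known from mouse knockouts to bear on adipose tissue and glucose handling, was 7.56 in LDKO, 6.76 in the Irs1/2-flox control, 6.91 in LTKO and 6.55 in the Irs1/2:FoxO1-flox control. LDKO lay 0.65 above the next array, and its difference was 0.80, or 1.74-fold, against the Irs1/2-flox control and 1.00 against the Irs1/2:FoxO1-flox control. Col5a2 was 7.34 in LDKO, 6.93 in the Irs1/2-flox control, 6.91 in LTKO and 6.92 in the Irs1/2:FoxO1-flox control. The other 3 arrays of Col5a2 were within 0.02, and LDKO lay 0.41 above them. Col5a1, the chain common to most type V trimers, was higher by only 0.11 in LDKO by its brighter probe and by 0.20 by a dimmer one.

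Col27a1, a fibrillar collagen best known from cartilage, was 6.37 in LDKO, 5.90 in the Irs1/2-flox control, 5.88 in LTKO and 5.93 in the Irs1/2:FoxO1-flox control. As for Col5a2, the other 3 arrays lay within 0.06 and LDKO 0.43 above. Col2a1, the main cartilage collagen, was 5.32 in LDKO and 4.87 in its control, near the filter. Of the 6 cartilage markers only Sox9 reached the median gene on any array, at 6.57 in LDKO and 6.46 in its control, and aggrecan (Acan) was 3.78 in LDKO and 3.60 in its control. The interstitial collagens of type I did not share this order. Col1a1 was 8.48 in LDKO, 8.61 in the Irs1/2-flox control, 8.76 in LTKO and 8.85 in the Irs1/2:FoxO1-flox control. Col1a2, its partner in the same trimer, was 8.42, 8.54, 8.67 and 8.84 in that order. Both chains of type I ranked the arrays alike, with LDKO lowest and both FoxO1-flox arrays above both arrays of the other line. A dimmer second probe of Col1a2 gave another order, at 5.15 in LDKO, 5.36 in the Irs1/2-flox control, 5.28 in LTKO and 5.13 in the Irs1/2:FoxO1-flox control. The probes thus disagree on the lines, on the lowest array and on the sign of LTKO against its control. Col3a1, which forms fine fibrils with type I, was 8.94 in LDKO and 8.77 in its control, and 8.78 in LTKO and 8.93 in its control, so it was highest in LDKO by a margin far below the range over the arrays.

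**Figure D3:**
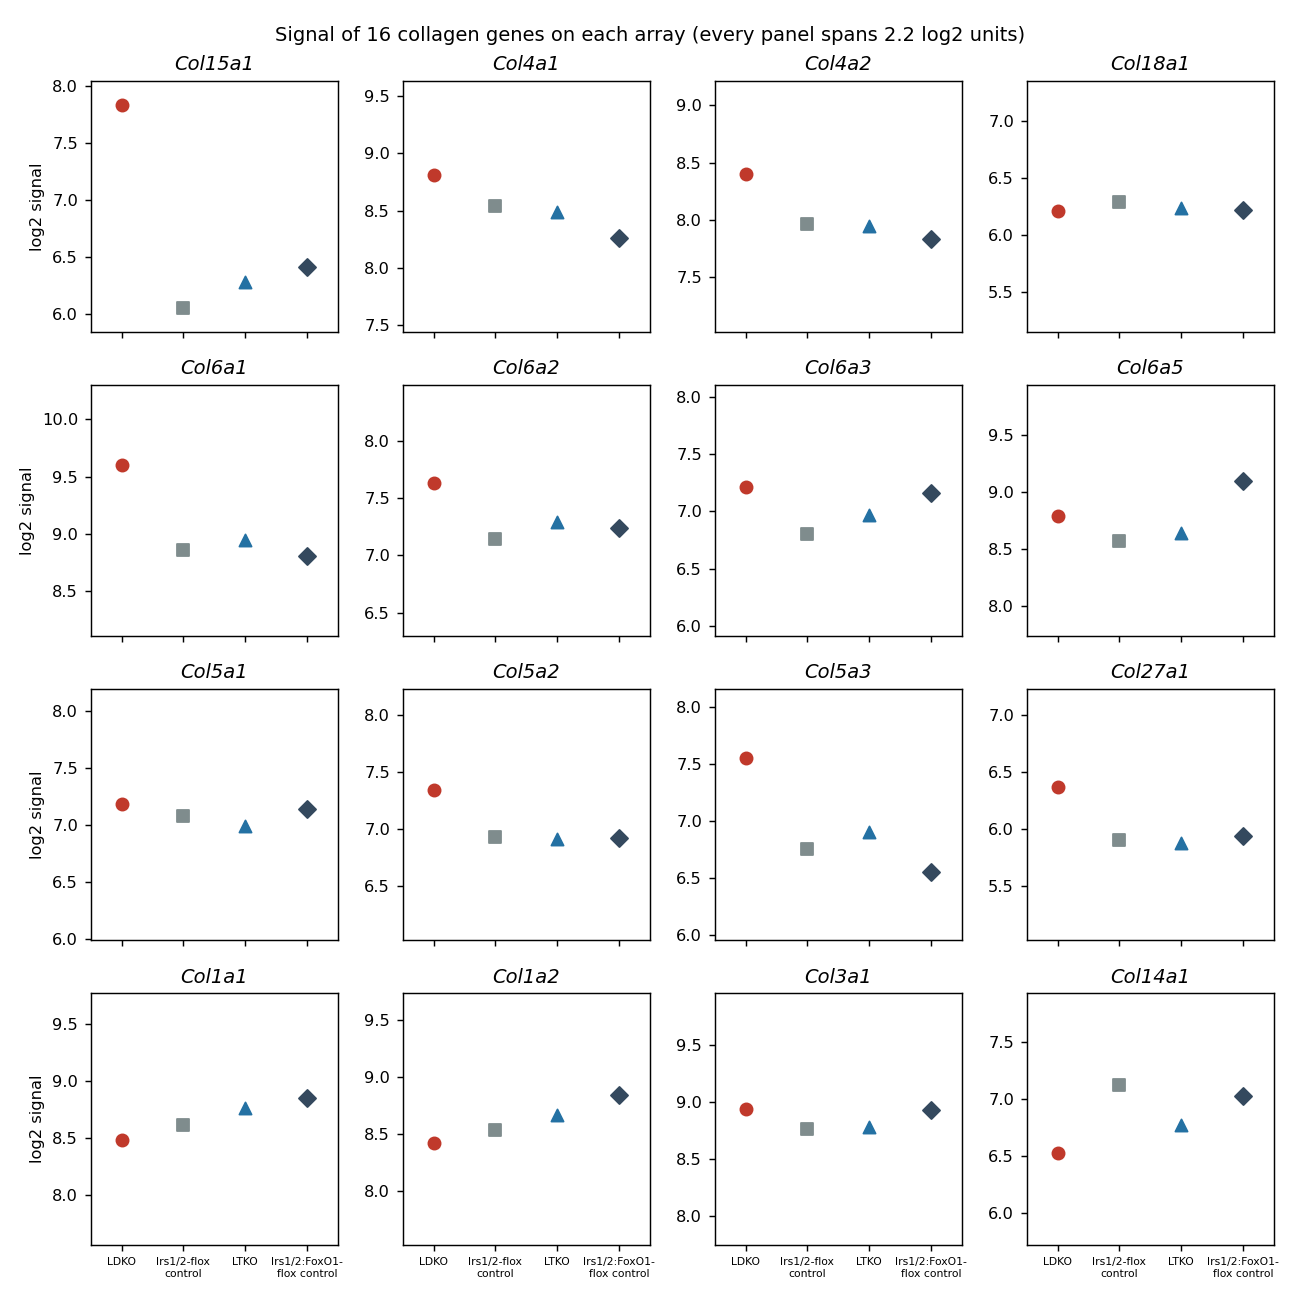
Log2 signal of collagen genes from 4 classes on each of the 4 arrays, 1 point for each array, every panel spanning the same number of log2 units; levels are not comparable between genes. LDKO stands far above the other 3 arrays for Col15a1, above a tight group of them for Col6a1, Col5a2 and Col27a1, and below all others for Col1a1, Col1a2 and Col14a1.

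Of the collagens that decorate fibrils, 6 of 9 measured passed the filter. Col14a1, which binds fibrils through decorin and is made by fibroblasts, had the most negative collagen difference in LDKO. It was 6.52 in LDKO, 7.12 in the Irs1/2-flox control, 6.77 in LTKO and 7.02 in the Irs1/2:FoxO1-flox control, so both Cre arrays lay below both controls. The difference was −0.60 in LDKO and −0.25 in LTKO, each against its own control. Col12a1, a relative on fibrils under load, was 5.07 in LDKO, 5.08 in its control, 5.37 in LTKO and 5.43 in its control, and thus separated the floxed lines more than the Cre arrays. Col9a2, Col9a3, Col16a1 and Col20a1 differed by −0.26 to 0.24 in LDKO from the Irs1/2-flox control. Col8a1, a short chain of networks in vessel walls, was 5.81 in LDKO, 6.16 in the Irs1/2-flox control, 6.12 in LTKO and 6.46 in the Irs1/2:FoxO1-flox control. It was lower in each Cre line than in its own control, by −0.35 in LDKO and −0.34 in LTKO.

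In the remaining classes Col23a1, a transmembrane collagen, was 5.66 in LDKO, 5.24 in the Irs1/2-flox control, 5.36 in LTKO and 5.73 in the Irs1/2:FoxO1-flox control. The 2 controls of Col23a1 thus differed by 0.49, more than either Cre array did from its own control. Col13a1, also transmembrane, Col7a1 of anchoring fibrils and Col26a1 differed by 0.05, 0.04 and 0.23 in LDKO. The 13 collagens below the filter on all arrays included Col10a1 and Col11a1 of cartilage and Col17a1 of skin, and their differences from the own control lay between −0.39 and 0.43 in LDKO and LTKO.

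In LTKO fat no collagen was 1.5-fold apart from the Irs1/2:FoxO1-flox control, in either direction, where 3.55% of all genes were that much higher and 0.867% lower. At 2-fold the background was 1.73% higher and 0.0434% lower. Of 27 collagens past the filter in that comparison, 11 were higher and 16 lower, with 42.8% of all genes higher, and the median was −0.06, against −0.03 for all genes. The fibrillar class had 1 of 7 members higher, Col5a3 by 0.35. Type VI genes divided, with Col6a1 at 0.14 and Col6a2 at 0.05, and Col6a5 at −0.46, Col6a6 at −0.35 and Col6a3 at −0.19. Col4a1 and Col4a2 were higher by 0.23 and 0.12, Col4a4 by 0.42, and Col15a1 was at −0.13. Over all measured members, the epididymis and hepatocyte lists had means of 6.21 and 6.66 in LTKO, against 3.85 and 4.58 in its control. The part of these transcripts in the collagen values was not tested.

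Setting LTKO directly against LDKO asks how the fat of the 2 Cre lines differs without the controls, although the lines also differ in the floxed FoxO1 alleles. This contrast shares the LDKO array with the comparison above, so it is no independent sign of the LDKO values. Of 30 collagens past the filter 9 were higher in LTKO, against 57.4% of all genes. Col15a1 was the 1 gene at least 2-fold lower, at −1.55, against a background of 0.6%, and 0 were 2-fold higher, against 1.51%. Col6a1 at −0.66 and Col5a3 at −0.65 made 3 at 1.5-fold lower, against 2.57%, and 0 were 1.5-fold higher, against 5.41%. Col1a1 and Col1a2 were higher in LTKO, by 0.28 and 0.25. With each Cre line first set against its own control, the LTKO value less the LDKO value was below 0 for 24 of 31 collagens, against 47.9% of all genes, and its median was −0.17, against 0.02. That value contains the LDKO difference itself, so it is no independent sign either. It passed 2-fold for Col15a1 alone, on the lower side, against 1.09% of genes, and for 0 on the higher side, against 2.93%. It passed 1.5-fold on the lower side for 6 collagens, Col15a1 at −1.91, Col23a1 at −0.79, Col6a5 at −0.67, Col6a1 and Col6a3 at −0.60 and Col2a1 at −0.59, against 5.18% of genes, and on the higher side for Col4a4 alone, at 0.90, against 7.85%. For Col23a1 and Col6a5 the controls themselves differed by 0.49 and 0.53, and LTKO less LDKO directly was −0.30 and −0.15. For Col6a3 and Col4a4 the controls differed by 0.36 and −0.37, and LTKO less LDKO directly was −0.24 and 0.53. For Col2a1, which passed the filter through the LDKO array alone, these values were 0.21 and −0.37.

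The 2 arrays without Cre show how far collagens differ between controls. In the Irs1/2:FoxO1-flox control 16 of 29 collagens were higher than in the Irs1/2-flox control, against 55.5% of all genes, and the median difference was 0.04, against 0.03. No collagen was 1.5-fold apart, against 2.06% of genes higher and 2.48% lower, nor 2-fold, against 0.262% and 0.507%. The largest values were 0.53 for Col6a5 and −0.51 for Col9a3. The largest differences in LDKO, 1.78 for Col15a1, 0.80 for Col5a3, 0.74 for Col6a1 and −0.60 for Col14a1, exceed that range. By its second probe Col6a1 was at 0.35, within it. The differences of Col4a1, Col4a2, Col6a2, Col6a3, Col5a2 and Col27a1 lie within it too. The range comes from the 2 controls alone and shares the Irs1/2-flox array with the LDKO differences, so it gives no spread between replicates. Col1a1 and, by its brighter probe, Col1a2 were higher by 0.24 and 0.30 in the Irs1/2:FoxO1-flox control. Each value exceeds the gene's differences between a Cre line and its own control.

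Genes that make and bind collagen are set here beside all genes, of which 43.2% had the higher signal in LDKO, with a median of −0.05 against the Irs1/2-flox control. At 1.5-fold 2.85% were higher and 3.88% lower, and at 2-fold 0.572% and 0.624%. Of 17 folding and modification genes past the filter, 6 were higher and 11 lower in LDKO, with a median of −0.05 equal to that of all genes, and 0 were 1.5-fold apart. Among them the lysyl hydroxylase Plod1 was 7.19 in LDKO, 6.67 in the Irs1/2-flox control, 7.61 in LTKO and 7.47 in the Irs1/2:FoxO1-flox control, so it differed most between the floxed lines. In the same list the prolyl 3-hydroxylase P3h1 was lower by −0.50 in LDKO and −0.48 in LTKO. Serpinh1, the collagen chaperone, differed by 0.20 in LDKO and −0.01 in LTKO. Of 10 processing and cross-linking genes, 5 were higher and 5 lower in LDKO, also near the share of all genes. Pcolce2, an enhancer of procollagen cleavage, was lower by −0.62 and the transglutaminase Tgm2 higher by 0.47. In LTKO the lysyl oxidase Lox, which starts the cross-links, was 9.52, against 8.89 in its control, and was the 1 of 9 genes of that list at least 1.5-fold higher, where 3.55% of all genes were; the Irs1/2:FoxO1-flox control was its lowest array.

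Collagen receptors had 4 of 10 members higher in LDKO, with a median of −0.10, near the share and the median of all genes. The integrin Itga11, a fibroblast receptor for fibrillar collagen, was 5.27 in LDKO, 6.13 in the Irs1/2-flox control, 5.40 in LTKO and 5.61 in the Irs1/2:FoxO1-flox control. The discoidin receptor Ddr2 and the type VI collagen receptor Antxr1 differed by −0.57 and −0.58 in LDKO and by −0.30 and −0.16 in LTKO. Proteoglycans and glycoproteins that bind fibrils had the lowest median of these lists. Of 14 past the filter, 13 were lower and 1 was higher in LDKO, where 43.2% of all genes were higher. Their median was −0.31, against −0.05 for all genes. At least 2-fold lower were 2, against 0.624% of all genes, the thrombospondins Thbs2 at −3.34 and Thbs1 at −1.13. Thbs2 was 7.10 in LDKO, 10.44 in the Irs1/2-flox control, 9.37 in LTKO and 9.67 in the Irs1/2:FoxO1-flox control. Fibronectin (Fn1) was lower by −0.91, and the member that was higher was Sparc, a collagen-binding matricellular protein, at 0.37.

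Of 14 other proteins of the basement membrane, 3 were higher and 11 lower in LDKO, against 43.2% of all genes higher, and their median of −0.09 was close to the −0.05 of all genes. In this list the laminin chain Lama2 was at −0.54. In LTKO 7 were higher and 7 lower, with Lamc3 lowest at −0.62. Of 18 genes of the TGF-beta pathway, a main inducer of fibrillar collagen, 4 were higher and 14 lower in LDKO, against 43.2% of all genes higher, with a median of −0.13 and 0 past 1.5-fold. The inhibitor Smad7 was higher by 0.72 in LTKO than in its control, but by 0.15 against the Irs1/2-flox control, as the controls were −0.57 apart.

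**Figure D4:**
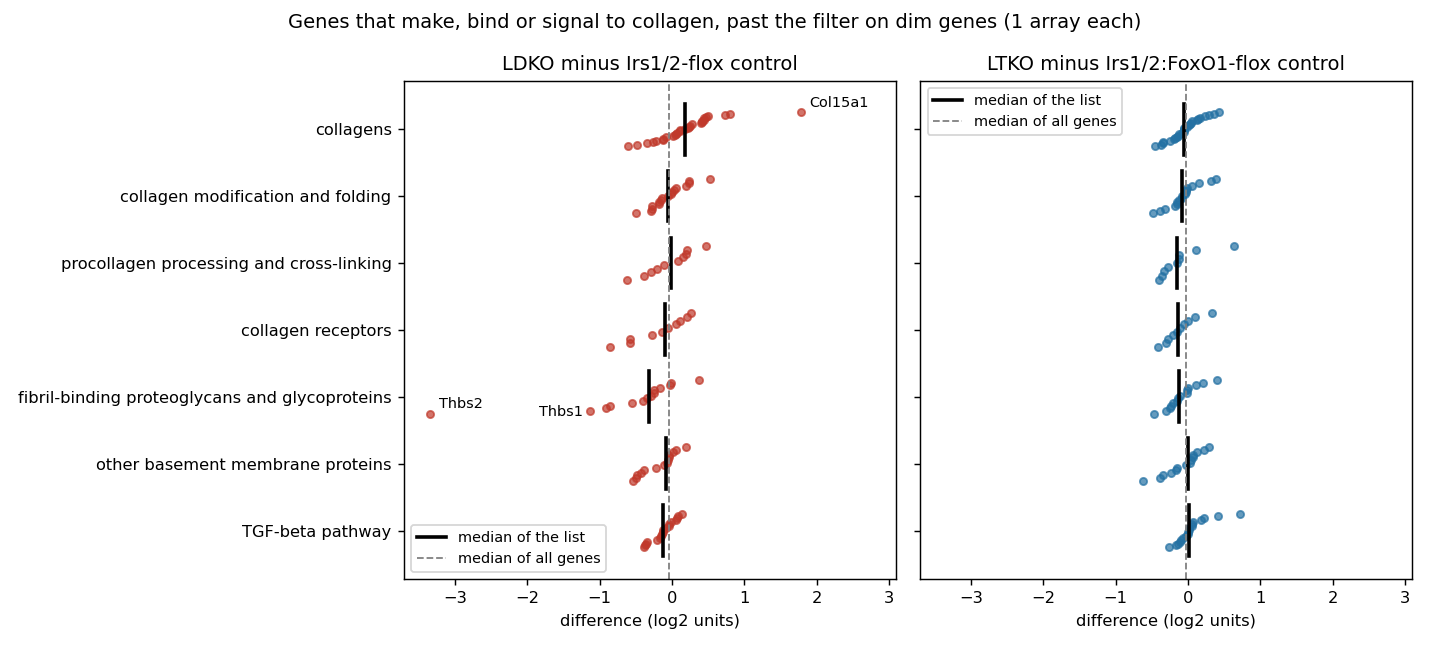
Difference in log2 units of collagens and of 6 lists of genes that make, bind or signal to collagen, each Cre line against its own control, past the filter; points are genes, thick lines list medians and dashed lines the median of all genes. In LDKO the collagen median of 0.17 lies to the right of the dashed line and the median of fibril-binding proteins, −0.31, to its left.

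Markers of cells that make matrix were read on the same arrays. In LDKO 6544 and in LTKO 6583 of all 11533 genes were lower than in the own control. A marker list that is mostly lower is read against these counts. Fibroblast and stromal progenitor markers were lower in LDKO for 8 of 9 measured, and in LTKO for 7 of 9, with list means of 8.05 in LDKO, 8.44 in the Irs1/2-flox control, 8.31 in LTKO and 8.52 in the Irs1/2:FoxO1-flox control. LDKO thus had the lowest mean on this list, which shares Dcn and Lum with the fibril-binding list. LDKO was also lowest for 8 of 31 collagens, against 37.4% of all genes past the filter. Col1a1, Col14a1 and, by its brighter probe, Col1a2 were among them. LDKO was highest for 19 of the 31, Col15a1, Col6a1 and Col5a3 among them, against 22.7% of all genes. Endothelial markers, whose cells also lay down type IV and XV collagen, had means of 8.50, 8.41, 8.43 and 8.52 in that order of arrays. In LDKO 5 of 8 were higher than in its control, with a median of 0.03, from −0.27 for Tek to 0.83 for Cldn5. Smooth muscle and pericyte markers averaged 7.43 in LDKO and 7.62 in its control, below the 7.97 of the Irs1/2:FoxO1-flox control. Macrophage markers were lower in LDKO for 7 of 7 and in LTKO for 6 of 7, with a median of −0.35 in each. Mesothelial markers were lower in LDKO for 8 of 8 and in LTKO for 5 of 8, the latter near the share of all genes. The Irs1/2:FoxO1-flox control was also lower than the Irs1/2-flox control for 8 of 8. Against the Irs1/2:FoxO1-flox control, LDKO was lower for 5 of 8. Of 3 measured genes on the Schwann cell list only Scn7a reached the median gene, and it was at −0.24 in LDKO. Sox10 and Cdh19 stayed below the median gene on all arrays, so the list gives no reading of Schwann cells. No marker has a true 0 on this scale, and the part of cell mixture in the collagen differences was not tested.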

How the data were processed

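RNA was hybridised to Affymetrix whole-transcript arrays, 1 array for each of 4 groups, as the labels' source names give them. The authors deposited log2 signals per probe set made with Affymetrix Expression Console and RMA, per the submitters' processing notes; their versions, and which arrays were normalized together, are not stated there. RMA compresses differences of dim probes and removes any shift shared by all genes. Of 41345 probes, 23521 had 1 symbol, 1814 several and 16010 were unnamed here; current symbols came from RefSeq (GRCm38.p6) by Entrez identifier, which matched for 23328. A gene was its brightest single-symbol probe by the mean of 4 arrays. Array medians ran from 4.68 to 4.73, and Pearson's r between arrays across genes from 0.986 to 0.991. In each comparison genes entered if the higher array reached the median gene, 5.15. With no replicates there was no test; counts of collagens past 2-fold and 1.5-fold are given beside the share of all genes. The steps were tested on simulated data. The text names every collagen past the filter and, of each other list, up to 4 members with the largest difference; Serpinh1, Sparc and Acan were added after their values were seen. Members and lists were chosen with earlier results of these data known. Tools were matplotlib 3.10.9, statsmodels 0.14.6, pandas 2.3.3, numpy 2.4.6 and Python 3.11.15.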

Additional observations from a re-analysis of the deposited data

Results flagged for a closer look

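Some collagen values had opposite signs in LTKO and LDKO, each array against its own control, and with 1 array each the difference was not tested. The collagen median was −0.06 in LTKO and 0.17 in LDKO, −0.23 apart, against −0.03 and −0.05 for all genes. The LTKO median was 0.0071 against the Irs1/2-flox control. Its sign thus depends on the control array, so no direction is shown for LTKO. Col15a1, at −0.13 in LTKO and 1.78 in LDKO, differed by −1.91. Col23a1, at −0.37 in LTKO and 0.42 in LDKO, differed by −0.79, and the controls of Col23a1 were 0.49 apart. Col4a4, at 0.42 in LTKO and −0.48 in LDKO, differed by 0.90, near the level of the filter on dim genes. The controls of Col4a4 were −0.37 apart.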

How the results depend on the processing

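With 1 array a group no array could be left out, so stability against single arrays cannot be shown. Of 102 recomputed values, 94 stayed within 1.5 times the count, or within 0.16 of the median or gene difference. The 0.16 is the median absolute difference between the 2 control arrays. Some values could not move: a count of 0 at 2-fold stays 0 at 3-fold, and a gene with 1 probe keeps its probe mean. The 0.16 is also about as large as the largest collagen median, and a change of sign within it counted as staying. The 94 is therefore no measure of stability. Counts at least 2-fold higher in LDKO than its control, 1 as reported, were 3 at 1.5-fold and 2 against the Irs1/2:FoxO1-flox control (Col15a1 and Col5a3); the count lower, 0 as reported, was 1 at 1.5-fold. For LTKO minus LDKO the count lower, 1 as reported, was 3 at 1.5-fold and 0 at 3-fold. The collagen median in LDKO ran from 0.09 against the other control to 0.26 with the filter at the 70th percentile. In LTKO it was between −0.13 and 0.0071, the last against the other control, so its sign is not settled, and between the controls it was −0.0026 after a loess curve was removed. Among single genes, chosen for this after seeing the data, Col6a1 was 0.55 with the mean of its probes, Col15a1 was 1.42 and Col5a3 was 1.00 against the other control, and Col14a1 kept between −0.60 and −0.50. The median of the LTKO value less the LDKO value stayed below 0 under the alternatives, also chosen after seeing the data. Dim genes limit what could be seen: 13 collagens never reached the median gene.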

Other observations

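The 8 pairs of collagen genes that neighbour each other in the genome did not all share a direction in LDKO against its control. Both members were higher for Col3a1 and Col5a2 (0.17 and 0.41), Col6a2 and Col6a1 (0.49 and 0.74), Col4a1 and Col4a2 (0.27 and 0.44) and Col4a6 and Col4a5 (0.07 and 0.11). Col6a6 and Col6a5 lay at −0.22 and 0.22. In the other 3 pairs at least 1 member was below the filter on all arrays.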
